A study of Homo sapiens with 8 samples.

Results

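The regions described here are H3K9ac peaks whose centre lay between 1 and 1000 bp upstream of the nearest annotated transcription start site (TSS), where that TSS belonged to a protein-coding gene. They were chosen by the gene type and the distance given in the peak lists, and not by their level. Of 27467 H3K9ac peaks, 6950 met the rule, 1807 of 7141 astromal peaks and 5143 of 20326 stromal peaks. They made up 25.3% of either list, and lay at 1747 and 4877 genes, 5110 genes in all. The cells were MIA PaCa-2, an established pancreatic cancer line, grown as spheroids in a cross-linked hyaluronan hydrogel. The growth medium of the line held more serum than the 2% of the gel cultures, at the same level for all samples. Astromal gels had water in place of the collagen-derived gel component, and the medium above them was DMEM with 2% serum. Stromal gels held that component and received medium, also with 2% serum, that had been conditioned by immortalised myofibroblasts from resected human pancreatic tumours. The gel component and the conditioned medium came together, so their parts cannot be told apart. There was 1 ChIP library for each mark and condition, so no difference between conditions has a replicate check, and none was tested.

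Acetylation of lysine 9 and of lysine 27 on histone H3 marks active promoters, and lysine 27 acetylation also marks active enhancers. The start site itself tends to be free of nucleosomes, so that the marks sit on nucleosomes on both sides of it. GCN5 and PCAF are known writers of H3K9ac, and p300 and CBP of H3K27ac. Upstream of a start, the acetylated nucleosomes flank the stretch of DNA that holds the core promoter and its proximal factor sites, and at many promoters that stretch also drives a divergent transcript.

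The DNA upstream of the start is shown for 4 genes whose peaks recur below. EIF4A2, an RNA helicase of translation initiation, had the highest astromal region and no overlapping H3K27ac peak in either condition. FUK, the fucose kinase, had the highest astromal H3K27ac of the shared regions. PRMT2, a protein arginine methyltransferase, had one of the highest stromal regions without stromal H3K27ac. ZNF335, a zinc finger protein, had high levels of both marks in both conditions. Each sequence is the 250 bases before the gene's start in RefSeq, from 5′ to 3′ on the gene's own strand. Capitals mark matches, on either strand, to the motifs searched. These were the GC box with the letters GGGCGG, the box named CCAAT, the ETS type motif with CCGGAAG, and the E-box with CACGTG. The others were the NRF1 type motif with GCATGCGC, the CRE with TGACGTCA, the TATA motif with TATAAA, and the ZNF143 type motif. No 2 of the marked matches overlap each other in these sequences. The sequences are in build GRCh38 and the peaks in hg19, and the start in that table may differ from the start the lists used.
EIF4A2 (GRCh38.p14, chr3:186783327-186783576, plus strand): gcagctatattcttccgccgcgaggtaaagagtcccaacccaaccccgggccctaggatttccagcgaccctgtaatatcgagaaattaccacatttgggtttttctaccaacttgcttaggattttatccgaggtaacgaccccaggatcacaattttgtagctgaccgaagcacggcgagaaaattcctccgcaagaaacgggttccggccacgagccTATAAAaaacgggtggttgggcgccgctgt
FUK (GRCh38.p14, chr16:70454345-70454594, plus strand): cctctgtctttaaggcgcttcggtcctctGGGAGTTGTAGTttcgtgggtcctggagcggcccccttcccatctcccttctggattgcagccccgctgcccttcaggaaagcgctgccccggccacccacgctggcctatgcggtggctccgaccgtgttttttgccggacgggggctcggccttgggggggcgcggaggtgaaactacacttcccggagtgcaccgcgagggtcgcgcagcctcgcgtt
PRMT2 (GRCh38.p14, chr21:46635424-46635673, plus strand): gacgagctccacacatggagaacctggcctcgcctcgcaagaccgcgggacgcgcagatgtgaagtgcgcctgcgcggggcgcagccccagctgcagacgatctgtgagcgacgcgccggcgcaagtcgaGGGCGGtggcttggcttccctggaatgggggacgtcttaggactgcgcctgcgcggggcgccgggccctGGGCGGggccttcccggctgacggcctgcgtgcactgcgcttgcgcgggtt
ZNF335 (GRCh38.p14, chr20:45972204-45972453, minus strand): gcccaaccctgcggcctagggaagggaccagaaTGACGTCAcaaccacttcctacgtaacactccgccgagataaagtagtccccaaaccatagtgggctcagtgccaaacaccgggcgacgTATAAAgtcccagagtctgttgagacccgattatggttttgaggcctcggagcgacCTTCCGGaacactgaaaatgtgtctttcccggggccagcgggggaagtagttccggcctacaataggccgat
The EIF4A2 stretch held a TATAAA match that begins 30 bp before the start and none of the other motifs. FUK held 1 match, to the ZNF143 type motif, beginning 221 bp before the start. PRMT2 held 2 GC boxes, beginning 120 and 51 bp before the start, in a stretch of 72.0% G and C. ZNF335 held a CRE at 217 bp, a TATAAA at 128 bp and an ETS type match at 72 bp. These matches are descriptions of the letters and not of bound factors.

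The H3K9ac libraries differed in depth, with 3923202 astromal and 7569791 stromal tags, both estimated from the steps in the deposited values. H3K27ac had 13453902 and 17190695 tags. Levels below are the authors' tags per peak, scaled to 10000000 tags of the library and called normalised tags. Brackets give exact Clopper-Pearson 95% intervals, which cover counting error only. A median upstream region held 9 astromal or 20 stromal tags, so single astromal levels were coarse. CDKN2A, which this line is known to have lost, had no H3K9ac peak in either list, which is no check of the label, since many genes had none. Of 10 epithelial and cell line genes, 3 had an astromal and 6 a stromal H3K9ac peak within 1000 bp of a start, and EPCAM and CDH1 had none. None of 7 blood and vessel markers was listed. Of 11 myofibroblast markers, none had an astromal promoter peak and 3 had a stromal one, namely ACTA2 (14.5), COL1A1 (17.2) and COL1A2 (30.4). Summed over the 11, promoter level was 0 for astromal and 76.6 for stromal cells. PDGFRA had 2 stromal peaks, neither within 1000 bp of a start, and no astromal one. FAP, PDGFRB, COL3A1, DCN, LUM, THY1 and POSTN were not listed in either. The part of other cells in the differences below was not tested.

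Upstream regions clustered at a short distance before the start. The median centre lay 336 bp upstream in the astromal list (interquartile range 222 to 482) and 331 bp in the stromal list (237 to 465). More than 200 and up to 400 bp upstream lay 780 of the 1807 astromal regions (43.2%, 40.9 to 45.5) and 2510 of the 5143 stromal ones (48.8%, 47.4 to 50.2). The first 100 bp held 6.53% of astromal and 4.74% of stromal regions. Downstream of the start, peaks between 0 and 1000 bp numbered 3868 and 9301, with median centres at 308 and 324 bp. Upstream regions were thus 31.8% (30.6 to 33.1) of astromal and 35.6% (34.8 to 36.4) of stromal coding promoter peaks. Among peaks of at least 25 normalised tags these shares were 31.9% and 33.0%.

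**Figure D1:**
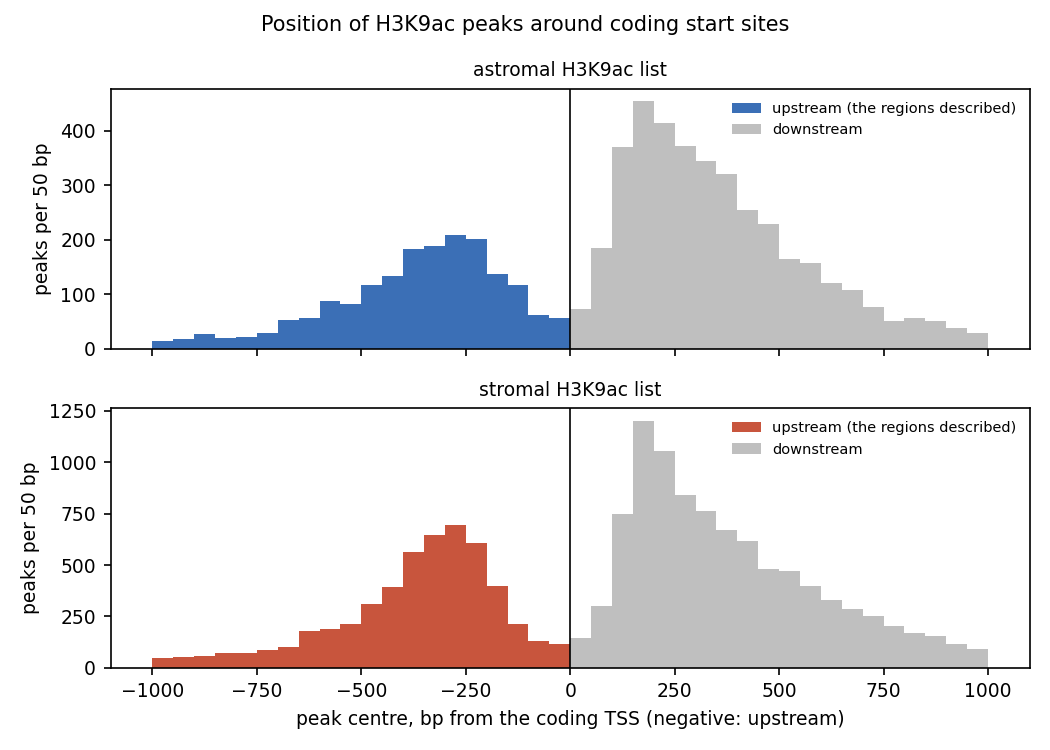
Number of H3K9ac peaks per 50 bp against the distance of the peak centre from the coding TSS, for the astromal (top) and stromal (bottom) list, with the regions described in colour and downstream peaks in grey. Both upstream humps peak between 200 and 400 bp before the start, with few centres in the first 100 bp.

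The regions at the edges of the rule were as follows. In the astromal list the farthest regions inside were those of ITPR3, the inositol trisphosphate receptor gene, at 999 bp with 17.8 normalised tags, and COG1 at 998 bp with 17.8. Just outside stood ARHGEF11 at 1001 bp (20.4) and ANKRD28 at 1002 bp (25.5). In the stromal list MAN2A2 at 1000 bp (25.1) and CDC37 at 999 bp (23.8) were the farthest inside, and TMEM256 at 1001 bp (47.6) and DHRS3 at 1002 bp (27.7) lay just outside. Nearest to the start, EPM2A and PTBP2 at 3 bp (17.8 and 20.4) and ADPRH and KIRREL2 at 1 bp (27.7 and 25.1) were inside. SNUPN in the astromal list (20.4) and DRAM1 in the stromal list (33.0), both at 0 bp, were outside, as were SLC29A2 (25.5) and PTCHD2 (14.5), both 1 bp downstream.

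The highest astromal region was that of EIF4A2, on chromosome 3 from 186501123 to 186501323 (hg19), 138 bp upstream, with 73.9 normalised tags (29 tags). Its stromal peak reached 81.9 (62 tags), so this region stood near the top of both lists. EIF5, which acts with the initiation complex at the start codon, followed with 68.8 astromal and 60.8 stromal normalised tags, 271 bp upstream on chromosome 14. The next were SPATA33 (58.6 and 46.2 at the overlapping stromal peak) and the zinc finger gene ZNF148 (56.1 and 68.7). KPNA4, an importin alpha gene, had 56.1 and 67.4, FUK 56.1 and 63.4, the complex I subunit gene NDUFA10 56.1 and 51.5, and the HSP70 co-chaperone gene BAG4 56.1 and 47.6. All 8 of these astromal regions were overlapped by a stromal peak.

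Among stromal regions the highest was that of NBPF1, with 95.1 normalised tags (72 tags) and 51.0 in the astromal list. NBPF1 belongs to a family of near-identical copies, so the placing of its reads is uncertain. MEPCE, which caps the 7SK RNA, had 84.5 stromal and 51.0 astromal, 60 bp upstream on chromosome 7 from 100027089 to 100027299. AKT1S1, an inhibitor of mTORC1, had 84.5 and 40.8, and the adaptor gene BCAR3 83.2 and 48.4. EIF3B, an initiation factor subunit gene, reached 83.2 with no overlapping astromal peak. The calcium-binding protein gene S100A13 had 81.9 and 40.8, and the focal adhesion gene ZYX 81.9 and 33.1. Few genes held several regions: 3 astromal genes and 10 stromal genes had 3 each, against 1690 and 4621 genes with 1. KIAA0586, CGGBP1 and UBE2D3 were the 3 astromal ones, and their regions belong in part to separate starts of the gene.

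Most astromal upstream regions were found again in stromal cells, whereas most stromal ones had no astromal counterpart. A stromal H3K9ac peak overlapped 1386 of the 1807 astromal regions (76.7%, 74.7 to 78.6), close to the 75.8% of all astromal peaks. An astromal peak overlapped 1385 of the 5143 stromal regions (26.9%, 25.7 to 28.2), against 26.6% of all stromal peaks. In the stromal list the shared part was larger at higher levels. It was 4.26% of regions with at most 19.8 normalised tags, 15.8% up to 26.4, 30.9% up to 35.7, and 61.4% (58.6 to 64.1) above that. Stromal downstream peaks showed a like rise over these classes, at 6.82%, 17.9%, 33.2% and 61.1%. In the astromal list the shared part ran from 73.3% in the lowest of the same kind of level classes to 83.6% in the highest. For astromal downstream peaks it ran from 73.7% to 83.6%. The rise with level was thus not particular to the upstream side. Stromal-only regions had a median of 23.8 normalised tags, and shared ones 37.0. The 5th percentile of astromal regions was 17.8, and that of stromal regions 13.2, so a promoter missing from the astromal list may still have carried H3K9ac below the listed levels.

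The strongest regions of 1 list alone were often neighbours of a peak in the other list. FTH1, the ferritin heavy chain gene, had its astromal region 395 bp upstream (56.1) and its stromal region 631 bp upstream (64.7), with centres 236 bp apart. SIAH1, a ubiquitin ligase gene, had 51.0 at 361 bp for astromal and 76.6 at 600 bp for stromal cells. ERRFI1, an inhibitor of EGF receptor signalling, had 48.4 at 615 bp and 71.3 at 349 bp. These 3 genes thus had a high region in both lists at different places, counted as unshared by the 1 bp rule. The purine synthesis gene GART (53.5 astromal normalised tags), the ribosomal protein gene RPL37 (45.9), COA6 (51.0) and C7orf55 (53.5) each had a stromal centre between 247 and 458 bp away. Of all 421 astromal-only regions, 311 (73.9%, 69.4 to 78.0) had a stromal centre within 500 bp, 189 of them upstream and 112 downstream of a coding start. The same share was not counted over all astromal-only H3K9ac peaks.

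Only 3 astromal regions had no stromal H3K9ac centre within 5000 bp, and they were chosen after their values were seen. TGIF1 encodes a homeobox protein that represses genes of the TGF-beta response. Its region lay 732 bp upstream and held 45.9 normalised tags (18 tags), on chromosome 18 from 3448579 to 3448779, with the nearest stromal centre 36618 bp away. PHLDA1 had 30.6 (12 tags), with the nearest stromal centre 51480 bp away, and FOXRED2 20.4 (8 tags), with 21046 bp. None of the 3 was overlapped by an astromal H3K27ac peak.

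Stromal-only regions were mostly far from astromal H3K9ac. Of 3758, only 420 (11.2%, 10.2 to 12.2) had an astromal centre within 500 bp, and 2295 (61.1%, 59.5 to 62.6) had none within 5000 bp. The highest was EIF3B (83.2), whose nearest astromal centre was 278 bp away. TMEM18 had 71.3, IST1, of the ESCRT machinery, 67.4, the splicing regulator gene HNRNPL 66.1 and the caveolin gene CAV1 64.7, with astromal centres 325 to 544 bp away. Of those with none within 5000 bp, named after their values were seen, the kinase gene WNK1 had 56.8 normalised tags (43 tags), SLK 55.5, the DNA polymerase alpha subunit gene POLA2 54.2 and NAIF1 52.8. The 8 highest stromal-only regions thus had an astromal centre 236 to 544 bp away, and the highest with none within 5000 bp stood below all 8.

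Seen by gene, 1514 had an upstream region under both conditions, 3363 under stromal conditions only and 233 under astromal conditions only. Of the 3363, 1019 (30.3%, 28.7 to 31.9) had an astromal peak downstream of the same gene's start. Of the 233, 201 (86.3%, 81.2 to 90.4) had a stromal downstream peak. All of these genes lacked an upstream region in the other list, so a promoter peak there could only be downstream. As background, 4735 genes had a peak on either side in both lists, of 4830 astromal and 9761 stromal genes with one. Where a gene had H3K9ac on either side of its start in both lists, at 4735 genes, the upstream side was marked in 36.2% (34.8 to 37.6) of astromal and 53.5% (52.1 to 54.9) of stromal cases. The downstream side was marked in 76.6% and 88.8%. Both sides were marked at 605 of these genes in the astromal list and at 2004 in the stromal list, or 12.8% and 42.3%. The upstream side alone was marked at 1110 (23.4%) and 529 (11.2%). These states depend on how many peaks each list holds, and neighbouring peaks had to keep apart: the smallest distance between centres was 292 bp in the astromal and 323 bp in the stromal list. At genes with both sides marked, the highest upstream and the highest downstream peak had the same astromal median (22.9 each, 608 genes). The astromal downstream peak was the higher at 278 genes (45.7%), the upstream one at 222 (36.5%), and 108 were equal. In the stromal list the median log2 ratio of upstream to downstream was −0.11 (26.4 against 29.1, 3517 genes), and the downstream peak was the higher at 55.0% of genes.

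At the 1332 upstream regions shared one to one, stromal H3K9ac was higher at 90.6%, by a median log2 ratio of 0.64 (1.55-fold, interquartile range 0.31 to 0.91). The 5411 shared H3K9ac peaks of any place had the same median, 0.64, and the shared downstream peaks too. Relative to that median, 11 regions were at least 2-fold higher in stromal cells (0.826%, against 0.943% of all shared peaks) and 24 of 1332 at least 2-fold lower (against 1.85% of all shared peaks). The upstream regions thus shifted by the same amount as all shared peaks. Stromal H3K9ac peaks were also wider, at 211 bp against 201 bp, so the uncentred difference is given as a description only. The 11 and the 24 are the extremes of 1332 regions, and their intervals of counting error take no account of that choice. Among so many regions, some intervals leave out the median by counting error alone. The interval left out the median in 2 of the 11 and 9 of the 24, which singles out no region. One of the 2, named after its values were seen, was SUV39H2, which encodes an H3K9 methyltransferase. It had 20.4 astromal (8 tags) and 70.0 stromal (53 tags) normalised tags, a centred ratio of 1.14 (0.06 to 2.43). Of the 9 on the other side, also named after their values were seen, ARHGEF17, a guanine nucleotide exchange factor gene, had 38.2 and 21.1, at −1.49 (−2.60 to −0.37). PHIP had 43.3 and 26.4, at −1.35 (−2.36 to −0.33).

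**Figure D2:**
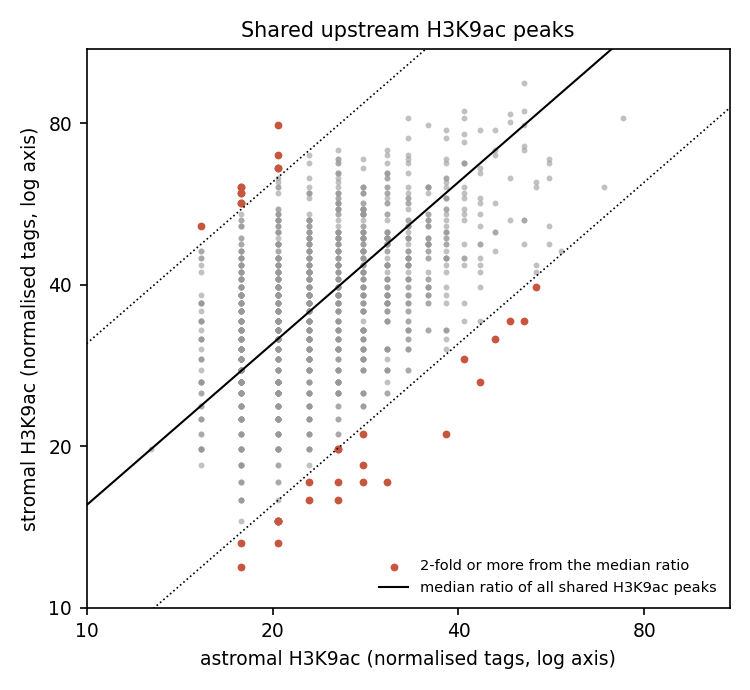
Astromal against stromal level of the 1332 shared upstream H3K9ac peaks, in normalised tags on log axes. The solid line is the median ratio of all shared H3K9ac peaks (1.55-fold), the dotted lines lie 2-fold to either side, and the 11 regions above and 24 below them are in red. The columns of points arise because 1 astromal tag is worth 2.55 normalised tags.

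Only 22 shared regions had at least 20 tags in each library. Among them the lowest centred ratio was that of SLC33A1, the acetyl-CoA transporter gene of the endoplasmic reticulum. Its levels were 51.0 in astromal and 34.3 in stromal cells (20 and 26 tags), at −1.21 (−2.10 to −0.29). TBC1D16, a regulator of RAB GTPases, had 53.5 and 39.6, at −1.07 (−1.92 to −0.19). SPATA33, the replication licensing gene CDT1 (53.5 and 42.3), the SRC family kinase gene YES1 and BAG4 followed, between −0.98 and −0.87. The highest of the 22 were NBPF1 at 0.26 (−0.47 to 1.06), MEPCE at 0.09 and RAB2A at 0.00. Next came the mRNA export gene THOC1 (72.7 stromal and 51.0 astromal), GPR19 (71.3 and 51.0) and ZNF148 (68.7 and 56.1), at −0.13, −0.15 and −0.34. The tag minimum keeps regions that are high in the shallower astromal library, which lowers these ratios. The median of the 22 was −0.54.

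Upstream H3K9ac regions coincided with H3K27ac more often than the list as a whole, in either condition. In astromal cells an H3K27ac peak overlapped 1277 of 1807 regions (70.7%, 68.5 to 72.8), against 59.7% of all astromal H3K9ac peaks and 56.9% (55.3 to 58.5) of the downstream ones. In stromal cells it overlapped 2680 of 5143 (52.1%, 50.7 to 53.5), against 39.9% of all and 35.1% (34.2 to 36.1) of downstream peaks. In each class of H3K9ac level the upstream share was the higher, with overlapping intervals in the highest astromal class. In the lowest class of levels it was 66.2% upstream against 49.1% downstream in astromal cells and 29.4% against 12.5% in stromal cells. In the highest class it was 78.2% (73.7 to 82.3) against 72.8% (69.6 to 75.8) in astromal cells. In stromal cells it was 70.9% (68.3 to 73.5) against 55.0% (53.1 to 56.8). By position, the overlap was largest more than 200 and up to 400 bp upstream in astromal cells, at 74.9% in both bins of 100 bp, and from 200 to 300 bp in stromal cells, at 56.3%. Next to the start the sides were close: in the first 100 bp the overlap was 64.4% (55.1 to 73.0) upstream and 63.5% (57.3 to 69.3) downstream in astromal cells, and 40.6% (34.4 to 47.0) and 36.0% (31.6 to 40.6) in stromal cells. It was smallest beyond 800 bp downstream in astromal cells (40.2%) and from 500 to 600 bp downstream in stromal cells (27.8%).

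**Figure D3:**
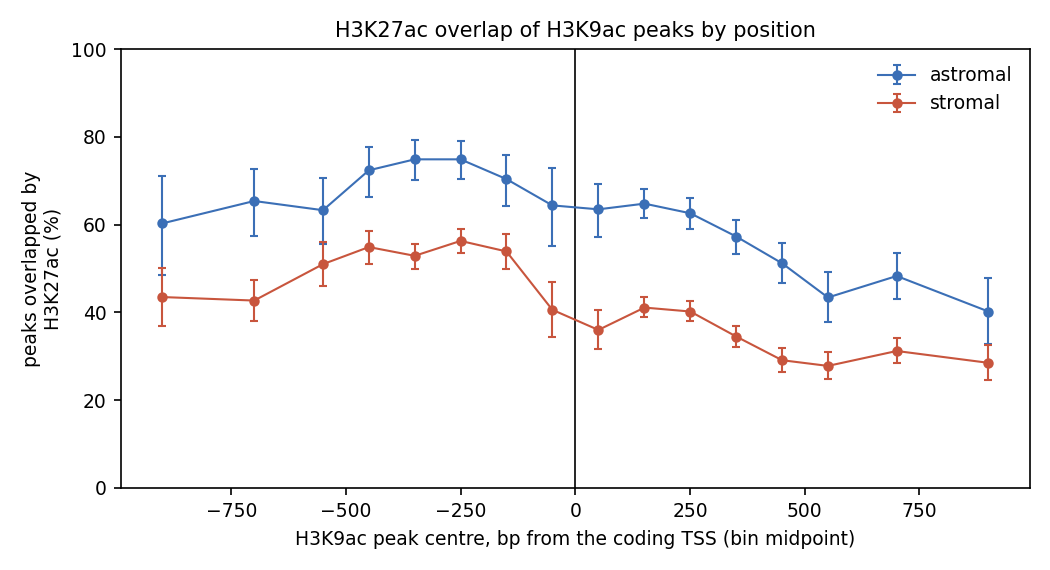
Share of H3K9ac peaks overlapped by an H3K27ac peak of the same condition, against the position of the H3K9ac centre relative to the coding TSS. Points are bin shares with exact 95% intervals of counting error, and the upstream side runs higher away from the start (74.9% astromal and 56.3% stromal from 200 to 300 bp), with intervals that overlap in the first 100 bp.

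**Figure D4:**
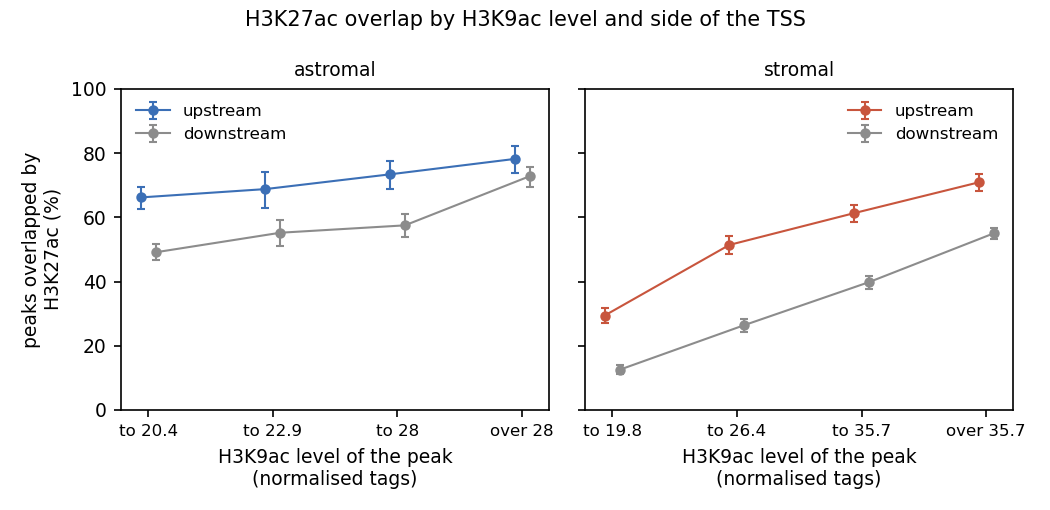
Share of H3K9ac peaks overlapped by H3K27ac in 4 classes of H3K9ac level, upstream (colour) and downstream (grey), with exact 95% intervals of counting error. In each class of each condition the upstream share is the higher, from 66.2% against 49.1% in the lowest astromal class to 70.9% against 55.0% in the highest stromal one.

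The same held within single starts. In the astromal list 291 starts had exactly 1 H3K9ac peak on each side. H3K27ac overlapped both peaks at 125 of them, the upstream peak alone at 99 (34.0%, 28.6 to 39.8), the downstream peak alone at 36 (12.4%, 8.82 to 16.7) and neither at 31. Of 1639 such starts in the stromal list the numbers were 329, 589 (35.9%, 33.6 to 38.3), 187 (11.4%, 9.91 to 13.0) and 534. Where the downstream peak had the higher H3K9ac, H3K27ac lay on the upstream peak alone at 33 and on the downstream peak alone at 21 of 133 astromal starts. At 898 such stromal starts it was 268 and 129. Both peaks of a start come from the same library, and no test was run.

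**Figure D5:**
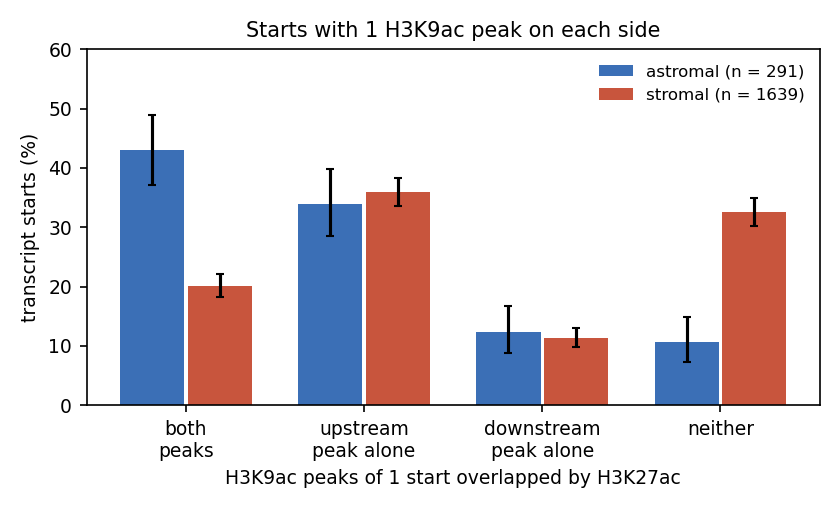
Starts with exactly 1 H3K9ac peak upstream and 1 downstream (291 astromal, 1639 stromal), by which of the peaks an H3K27ac peak of the same condition overlapped, in percent with exact 95% intervals. The upstream peak alone was overlapped at 34.0% and 35.9% of starts and the downstream peak alone at 12.4% and 11.4%.

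The offset of H3K27ac from the upstream regions was measured at overlapping peaks only, which by itself keeps it small. Measured along the gene, the median offset was 0 bp in astromal cells (interquartile range −52.0 to 56.0, 1195 regions whose strand could be read from the lists). It was −7.50 bp in stromal cells (−51.8 to 36.0, 1838 regions). Centres lay within 50 bp of each other at 47.3% and 55.8% of these regions. H3K27ac peaks at upstream regions had a median of 17.8 normalised tags in astromal and 12.8 in stromal cells, above the 13.4 and 11.6 of all H3K27ac peaks and the 14.9 and 11.1 of those at downstream H3K9ac. By the authors' fold over input the order of sides was the other way in astromal cells, with a median of 31.7 at upstream regions and 34.1 at downstream peaks, against 20.1 and 18.8 in stromal cells. Astromal H3K27ac peaks spanned 197 bp and stromal ones 175 bp, so levels are compared within a list only. Stromal upstream regions with H3K27ac were higher in H3K9ac than those without (30.4 against 22.5). In astromal cells both had a median of 22.9, with an interquartile range of 20.4 to 28.0 with H3K27ac and 17.8 to 25.5 without.

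The highest H3K27ac at shared upstream regions in astromal cells was at FUK, with 54.3 normalised tags (73 tags) and no overlapping stromal H3K27ac peak. FNBP4 had 49.8 astromal and 36.6 stromal, ZBTB8OS 49.8 and 38.4, and BANP, a nuclear matrix protein gene, 48.3 and 32.6. In stromal cells STK40 led with 55.8 (96 tags) and 48.3 in astromal cells. MEPCE had 46.0 stromal and 26.0 astromal, ZNF335 41.9 and 46.8, and TTI2 40.7 and 45.3. Apart from FUK, all of these had H3K27ac in both conditions.

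Some of the strongest upstream H3K9ac had no overlapping H3K27ac peak in the same condition. EIF4A2, SPATA33, BAG4 and CDT1 had none in either condition, although their H3K9ac was shared. FTH1 (56.1 astromal and 64.7 stromal normalised tags of H3K9ac) and ERRFI1 also had none at either of their regions. KPNA4 had no astromal peak and a stromal one of 31.4 normalised tags (54 tags). The reverse was seen at EIF3B, ZFP90 and PRMT2, which had astromal H3K27ac of 50.5, 16.4 and 24.5 and no overlapping stromal H3K27ac. H3K27ac peaks had to stand 4-fold over input and over the surrounding 10 kb, so where none is listed tags may still be present.

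Across the 1332 shared regions H3K27ac was present in both conditions at 817 (61.3%, 58.7 to 64.0), in astromal cells alone at 193 (14.5%), in stromal cells alone at 139 (10.4%) and in neither at 183 (13.7%). Stromal-only H3K9ac regions had H3K27ac in the astromal library as often as in the stromal one, at 1702 (45.3%, 43.7 to 46.9) and 1698 (45.2%, 43.6 to 46.8) of 3758. At 1252 of them (33.3%) both conditions had it, and at 446 (11.9%) the stromal one alone. Astromal-only regions had astromal H3K27ac at 227 of 421 (53.9%, 49.0 to 58.8) and stromal H3K27ac at 221 (52.5%, 47.6 to 57.4). The same states were not counted over all H3K9ac peaks, so they are not called particular to upstream regions. Over all peaks, shared or not, H3K27ac of the same condition overlapped 59.7% of astromal and 39.9% of stromal ones.

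Genes of the acetylation machinery show how the upstream side was marked in a chosen set. Of 26 symbols of the SAGA and ATAC complexes, which carry GCN5 or PCAF, 24 were listed, 7 had an upstream region under both conditions and 4 under stromal conditions alone. The symbols of this list and the next include some older aliases. Of those with a promoter peak, 7 of 12 had an upstream region in astromal and 11 of 24 in stromal cells. As background, an upstream region was listed for 1747 of 4830 astromal (36.2%) and 4877 of 9761 stromal coding genes with a promoter peak. Levels below are those of each gene's highest upstream region, which need not be the same peak under both conditions. The subunit gene SUPT3H had 43.3 astromal and 44.9 stromal normalised tags, TAF10 30.6 and 46.2, SUPT7L 22.9 and 43.6, and the scaffold gene TRRAP 20.4 and 26.4. WDR5, an adaptor of several chromatin complexes, had 17.8 and 59.4. ATXN7L3 (43.6), ZZZ3 (39.6), SUPT20H (23.8) and TAF6L (18.5) were marked upstream in stromal cells alone. KAT2A, which encodes GCN5, had a downstream peak in both lists (22.9 and 39.6) and no upstream region. KAT2B, which encodes PCAF, had no astromal peak and a stromal downstream peak of 27.7.

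Among 17 symbols of other acetyltransferases 4 had an upstream region in both lists, HAT1 (22.9 and 30.4), KAT6A (20.4 and 37.0), NCOA2 (20.4 and 30.4) and CLOCK (17.8 at 147 bp and 30.4 at 430 bp). A further 6 had one in stromal cells alone, led by KAT5 (52.8), TAF1 (38.3) and NCOA3 (35.7). EP300, which encodes p300, had no upstream region and a downstream peak of 15.3 astromal and 31.7 stromal normalised tags. Of 16 deacetylase genes 6 were marked upstream in both lists. HDAC4 had 38.2 and 42.3, HDAC6 33.1 and 22.5, HDAC1 22.9 and 25.1, SIRT1 20.4 and 29.1, HDAC5 20.4 and 27.7, and HDAC7 20.4 and 34.3. The regions of HDAC6 lay at different places, 535 bp upstream in astromal and 835 bp in stromal cells, and so did those of HDAC7, at 868 and 355 bp. HDAC2 had an upstream region in astromal cells alone (20.4), and SIRT3 (19.8) and HDAC10 (14.5) in stromal cells alone. Of 12 acetyl-lysine reader genes, BRD2 (30.6 and 47.6) and BPTF (15.3 and 37.0) were marked under both conditions and 5 genes under stromal conditions alone, among them BRD3 (33.0) and PHF10 (29.1). The regions of BRD2 lay 869 bp upstream in astromal and 381 bp in stromal cells. Of genes with a promoter peak, 4 of 9 astromal and 10 of 11 stromal genes of these other acetyltransferases had an upstream region. For deacetylases this was 7 of 9 and 8 of 14, and for readers 2 of 5 and 7 of 10. Over all coding genes it was 1747 of 4830 (36.2%) and 4877 of 9761, as given above. Of all stromal genes with an upstream region, 69.0% had one in that list alone. None of these shares was tested.

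The 19 genes of acetyl-CoA supply, all listed, had no upstream region common to both lists. ACLY, which makes acetyl-CoA from citrate, had an astromal region of 17.8 normalised tags (7 tags), PDHX 28.0, ACAT1 17.8 and PDK1, a kinase that inhibits pyruvate dehydrogenase, 22.9. In stromal cells these 4 had downstream peaks only, the highest at 37.0, 33.0, 37.0 and 38.3. Among all astromal genes with an upstream region, 13.3% had none in the stromal list. A further 7 genes had upstream regions in stromal cells alone, namely SLC25A1 (35.7), IDH1 (31.7), ACAT2 (27.7), PDK3 (25.1), DLD (21.1), PDHA1 (17.2) and CS (13.2). Among all stromal genes with an upstream region, 69.0% had none in the astromal list. These regions held 7 to 27 tags each.

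In sequence, promoters marked upstream in both lists or in the stromal list only were richer in G, C and CpG than all coding promoters. Of 5110 genes 4283 had an entry in the RefSeq promoter table. The 250 bases before the start held a median of 66.8% G and C at genes marked in both lists and 67.6% at genes marked in the stromal list only. The figure was 63.6% at genes with downstream H3K9ac only and 62.4% over all 15842 coding promoters of the table. The observed over expected CpG ratio was 0.874, 0.857, 0.824 and 0.737 in that order. Genes marked upstream in the astromal list only differed from these: over 199 matched genes the median was 62.8% G and C, near that of all promoters, with a CpG ratio of 0.806. A GC box stood in 72.4% (69.9 to 74.8) and 72.8% (71.1 to 74.5) of the promoters marked upstream, in 68.6% of those marked downstream only and in 56.0% of all. In the astromal-only group it stood in 64.8% (57.8 to 71.4). The ETS type motif stood in 19.6%, 16.7%, 18.7% and 11.8%. TATAAA, as at EIF4A2, stood in 4.43%, 3.52%, 5.16% and 9.23%. CCAAT stood in 32.6% and 34.4% of promoters marked upstream, near the 34.5% (33.7 to 35.2) of all. It stood in 37.4% (35.9 to 39.0) of those marked downstream only. The ZNF143 type motif, as at FUK, stood in 1.55% and 1.62% of promoters marked upstream, 3.46% (2.91 to 4.08) of those marked downstream only and 1.48% of all. CACGTG, GCATGCGC and TGACGTCA stood in 9.01%, 5.75% and 3.65% of promoters marked in both lists, against 7.84%, 3.70% and 2.32% of all. Promoters marked downstream only held them in 9.10%, 5.36% and 2.95%, near the shares of those marked in both lists.

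Genes with a head-to-head neighbour, whose start lies within 1000 bp on the other strand in the RefSeq table, were 18.3% (17.7 to 18.9) of all coding genes there. They were 25.3% (23.1 to 27.6) of astromal and 19.7% (18.5 to 20.9) of stromal genes with an upstream region. Where only the upstream side was marked the share was 27.8% (25.0 to 30.7) in astromal and 24.3% (21.8 to 26.9) in stromal cells. Where only the downstream side was marked it was 27.9% (26.2 to 29.7) and 30.9% (29.5 to 32.3). A peak between 2 starts is named by the nearer of them, so it can stand upstream of one gene or downstream of its neighbour. The table does not hold all genes, so some neighbours are missing from these counts.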

How the data were processed

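H3K9ac and H3K27ac peak lists of MIA PaCa-2 spheroids were used as the authors deposited them, 1 library per list. CASAVA 1.8.2, Bowtie and HOMER on hg19 are named in the submitters' processing notes. The H3K9ac lists carry HOMER annotation, per the file headers. How strict their peak calling was is unknown here. H3K27ac peaks were called against input, at least 4-fold over it and over the surrounding 10 kb, per the file headers. The deposited signal is the tag count per peak scaled by the authors to 10000000 tags. Per the file headers, the H3K27ac lists also give total tag counts, the fold over input and over the local region, and the fraction of tags in focus. The H3K9ac values are whole multiples, to within 0.1 tag, of a step that gave tags and depth.

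An overlap of 1 bp or more made a peak shared. bedtools 2.31.1 gave the same number of shared astromal peaks. Level ratios were taken at peaks that were each other's best overlap, centred on the median of all 5411 shared peaks, and called past 2-fold. Alternatives were the window, the level, the overlap rule, the H3K27ac threshold, centring and a tag minimum. Regions named are the 8 highest of each list and of each list alone. Also named are the 6 highest and lowest ratios among regions of 20 or more tags per library, the 6 highest without H3K27ac, the 4 genes with most regions, the 4 with highest H3K27ac, and genes of fixed lists. The regions, lists and rules were chosen with earlier results of these data known. Promoter sequences and gene neighbours came from RefSeq tables of GRCh38.p14, matched by gene identifier, with the first listed start of each gene and the bases before it only. Intervals are exact Clopper-Pearson. The input libraries were not analysed here on their own, and some genes that the rule names are not reported here.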

Additional observations from a re-analysis of the deposited data

How the results depend on the processing

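With 1 library per group, every value here rests on counting within single libraries, and astromal regions on a median of 9 tags. No paired analysis was possible because each group held 1 library and no result comes from a test. Of 56 recomputed values 17 stayed within their interval or within 1.5 times the count, and 39 moved. With at least 25 normalised tags the regions became 768 astromal and 2940 stromal, at 755 and 2834 genes. Windows of 500 and 2000 bp kept the numbers of regions and genes within 1.5 times those of the main rule.

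The share of astromal regions overlapped by stromal H3K9ac was 59.1% with overlap of at least 50% of the shorter peak, 93.9% with centres within 500 bp, 73.7% when matched to upstream regions only and 80.2% from 25 normalised tags. For stromal regions it was 20.7%, 35.1% and, from 25 normalised tags, 42.2%.

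The share with H3K27ac moved in step upstream and downstream, the latter computed after the data were seen. With overlap of at least 50% it was 53.8% upstream and 41.7% downstream in astromal cells, and 42.8% and 26.8% in stromal cells. With centres within 500 bp it was 86.6% and 75.5%, and 63.5% and 50.1%. With H3K27ac of at least 8-fold over input it was 68.1% and 54.2%, and 48.0% and 32.8%. From 25 normalised tags it was 75.8% and 65.2%, and 64.6% and 45.5%. Within 500 bp of the start it was 60.3% for astromal downstream, 53.7% for stromal upstream and 37.2% for stromal downstream peaks. The upstream share was higher than the downstream one under each of these. The stromal upstream share of coding promoter peaks was 37.3% within 500 bp and 33.0% from 25 normalised tags.

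Without centring, the median ratio was 0.64, with 262 regions 2-fold above and 0 below. With at least 20 tags in each library 22 regions were left, with a median of −0.54, 0 above and 2 below.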
